A study of Mus musculus with 6 samples.

Results

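Islr, Serpinf1, C1qtnf3 and Brinp3 are 4 genes, of 18951 in the deposited count table, whose mRNA was close to absent in mouse heart cell libraries labelled si-Rbm22 and abundant in those labelled si-Control. They were picked from this same contrast, selected on the small p-values of their falls, so their levels below are a description and carry no test. The series measured RNA in 6 cultures of cells isolated from hearts of 1-day-old C57BL/6J mice (strain label C57BL/6) and called neonatal cardiomyocytes, with a stated troponin T purity above 97.5%. In 3 cultures an siRNA against Rbm22, a gene for an RNA-binding spliceosome protein, was transfected (si-Rbm22), and 3 received a scrambled siRNA (si-Control). RNA was collected 48 h later. The protocols call the 3 cultures of a group biological replicates without saying if they were isolated separately, so the p-values reflect variation among these cultures alone, which may be technical.

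Total counts ran from 34269042 to 37344860 reads per library. Rbm22 itself had 798, 916 and 774 reads in si-Control and 533, 466 and 491 in si-Rbm22, a fall from 23.2 ± 1.79 to 13.5 ± 0.892 CPM (SD over 3 libraries; edgeR adjusted p = 4.22e-06). CPM are read counts scaled to library size, here with TMM factors that correct for library composition. The libraries labelled si-Control went against the cell type label. Of 11 cardiomyocyte markers, Nppa, Myl2, Myl3, Myl7, Pln and Mybpc3 had no read there, and the sum over the 11 was 47.0 to 54.4 CPM per library, against 26280 to 40620 CPM in si-Rbm22. Skeletal myoblast markers, 11 in number, summed to 1042 to 1079 CPM there. In si-Rbm22 this sum was 122 to 167 CPM, of which Itga7 alone held 146 ± 22.3, and Myod1, Myf5, Cdh15, Chrnd and Cacng1 had no read. Endothelial markers (7) summed to 1.61 to 1.96 CPM in si-Control and 259 to 304 CPM in si-Rbm22, and smooth muscle and pericyte markers (7) to 2650 to 2749 and 1993 to 2505 CPM. For the fall of Rbm22 and for every difference below, silencing of Rbm22 and cell content cannot be told apart. As these are bulk samples, fewer cells of a type and less RNA per cell cannot be told apart either.

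All 4 genes encode proteins that enter the secretory pathway, and Brinp3 belongs to a family named for its expression in neurons. Islr, also called Meflin, encodes a leucine-rich repeat and immunoglobulin domain protein, anchored at the cell surface, that is known as a marker of mesenchymal stromal cells and fibroblast precursors. Serpinf1 encodes pigment epithelium-derived factor, a secreted serpin without protease inhibitor activity that restrains blood vessel growth and binds collagen. C1qtnf3 encodes CTRP3 (cartducin), a secreted relative of adiponectin with a collagen-like stretch and a C1q domain, first known from growing cartilage. Brinp3 encodes a protein of the BMP and retinoic acid inducible neural-specific family, whose members carry a MACPF domain.

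The sequences before the annotated starts of the 4 genes, which lie on different chromosomes, are shown as a description. The genes were picked for their falls in this contrast, so falling together gives no ground to expect a shared sequence. They come from RefSeq on GRCm38.p6, in which 4 of 4 genes matched, and run 5′ to 3′ on the strand of the gene. Each window is 250 bases long and ends at the start site. Bases that lie in an annotated exon of the gene are not printed, which shortens 2 of them. The starts used for Islr, Serpinf1 and Brinp3 lie inside the span of the gene. For Islr this is because 1 long transcript begins farther upstream. The start used for Serpinf1 is at 75422623 and the gene begins at 75422701, so its printed bases lie outside the gene. The start used for Brinp3 is at 146497687 and the gene begins at 146494760. The printed bases of Brinp3, like those of Islr, therefore lie within the gene. Capitals mark the E-box CANNTG, the core that myogenic and other basic helix-loop-helix factors can bind.
Islr, chr9:58158555-58158804, minus strand: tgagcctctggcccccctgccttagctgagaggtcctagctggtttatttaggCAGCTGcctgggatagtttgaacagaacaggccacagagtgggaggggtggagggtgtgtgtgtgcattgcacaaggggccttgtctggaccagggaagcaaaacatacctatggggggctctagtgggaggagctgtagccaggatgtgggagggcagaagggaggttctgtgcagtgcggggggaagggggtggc
Serpinf1, chr11:75422702-75422873, minus strand: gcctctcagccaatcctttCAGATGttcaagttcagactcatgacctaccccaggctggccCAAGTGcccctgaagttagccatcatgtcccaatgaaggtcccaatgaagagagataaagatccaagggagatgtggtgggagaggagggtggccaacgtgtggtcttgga
C1qtnf3, chr15:10952082-10952331, plus strand: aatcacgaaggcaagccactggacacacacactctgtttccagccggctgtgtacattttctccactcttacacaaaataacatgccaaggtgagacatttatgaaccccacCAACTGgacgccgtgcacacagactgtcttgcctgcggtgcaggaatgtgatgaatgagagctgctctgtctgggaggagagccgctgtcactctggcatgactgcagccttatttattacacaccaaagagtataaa
Brinp3, chr1:146497437-146497613, plus strand: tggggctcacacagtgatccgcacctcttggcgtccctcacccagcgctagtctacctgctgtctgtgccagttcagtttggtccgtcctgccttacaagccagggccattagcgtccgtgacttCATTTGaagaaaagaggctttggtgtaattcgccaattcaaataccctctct

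Searched on both strands, the E-box was found 4 times in the whole Serpinf1 window and 1 time in each of the other 3. Of 32536 such windows in the table, 66.2% held at least 1 and 3.83% held at least 4. The form CAGCTG, contained in CANNTG, occurred in the Islr window alone, 197 bases before the start, and in 13.1% of all windows. The letters CCAAT occurred 3 times in the Serpinf1 window and 1 time in that of Brinp3 (33.8% of all windows hold them). C1qtnf3 had TATAAA 6 bases before its start (12.3% of windows). GGGCGG and the AP-1 letters TGANTCA were in none of the 4 windows, against 33% and 6.73% of all windows. No motif searched other than CANNTG was shared by all 4. Brinp3 has 3 annotated starts in this table, and the window shown is the first with at least 100 bases outside exons of the gene. GC content was 59.6% for Islr, 51.6% for Serpinf1, 49.2% for C1qtnf3 and 52.8% for Brinp3, with a median of 52.4% over all windows.

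Serpinf1 was the most abundant of the 4 in both groups. It lies on GRCm38 chromosome 11, 75409769 to 75422701, minus strand, with up to 7 introns (ENSMUSG00000000753). The libraries labelled si-Control held 22336, 22337 and 20851 of its reads, and the si-Rbm22 libraries held 229, 242 and 261. Scaled, the level went from 611 ± 8.78 to 6.64 ± 0.356 CPM (SD, n = 3 each). The groups lay far apart: the lowest si-Control library was 86.4 times the highest si-Rbm22 library. Of the si-Control level, 1.09% remained (95% counting interval 1.01% to 1.17%), the largest share among the 4.

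Islr lies on chromosome 9, 58156268 to 58204306, minus strand (ENSMUSG00000037206). It had 12931, 12902 and 11710 reads in si-Control and 24, 26 and 28 reads in si-Rbm22, or 349.9 ± 10.9 CPM against 0.708 ± 0.0469 CPM (SD, n = 3 each). Every si-Control library was at least 452 times above every si-Rbm22 library, and 0.202% of the level remained (0.160% to 0.253%). Islr and its neighbour Islr2 share 181 exonic bases of the 2686 annotated for Islr, all in 1 long Islr transcript. Of the distinct 50-base stretches in Islr transcripts, 94.95% occur in no other annotated transcript, so most of these reads could be told from Islr2.

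C1qtnf3 had the fewest reads left. It lies on chromosome 15, 10952332 to 10980150, plus strand (ENSMUSG00000058914). The si-Control libraries held 5725, 5787 and 5889 reads, and the si-Rbm22 libraries 1, 1 and 2. In CPM the levels were 162 ± 6.37 and 0.0361 ± 0.0149 (SD, n = 3 each). The remaining share was 0.0222%, with a counting interval of 0.0061% to 0.0573%, so its size rests on 4 reads in all. No 50-base stretch of its transcripts occurs in the transcripts of another gene.

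Brinp3 spans chromosome 1 from 146494760 to 146902472 on the plus strand, with up to 8 introns (ENSMUSG00000035131). It had 5589, 5697 and 5786 reads in si-Control and 7, 7 and 9 in si-Rbm22, or 159 ± 6.56 CPM against 0.208 ± 0.0271 CPM (SD, n = 3 each). What remained was 0.131% (counting interval 0.0831% to 0.197%). Antisense genes overlap Brinp3, and because the strand setting of the counting is not given in the sources used here, reads from Gm29514 cannot be told from it where the exons coincide. This concerns few of its bases, since 98.4% of the 50-base stretches of Brinp3 occur in no other transcript on either strand.

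**Figure D1:**
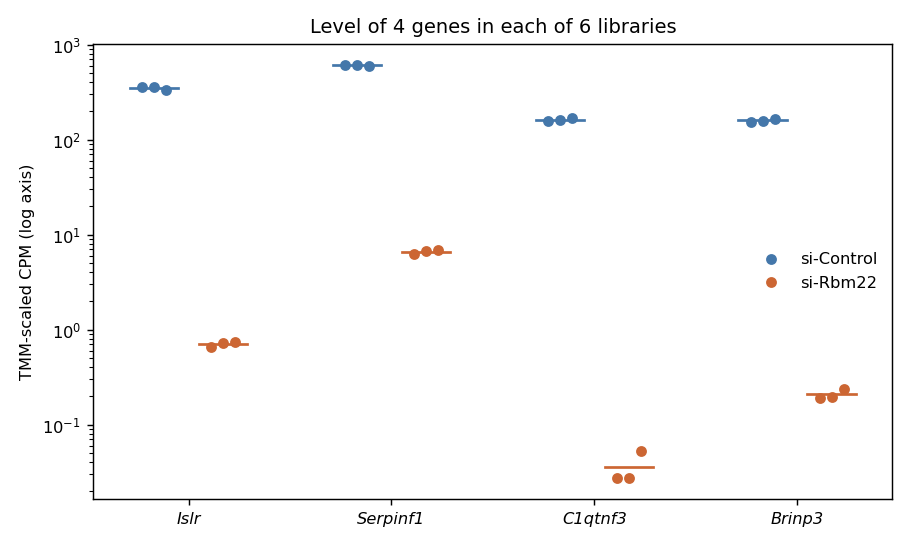
TMM-scaled CPM (log axis) of Islr, Serpinf1, C1qtnf3 and Brinp3 in each of 3 si-Control and 3 si-Rbm22 libraries, with points for libraries and bars for group means. The groups do not overlap for any of the 4, and the points of C1qtnf3 in si-Rbm22 stand for 1, 1 and 2 reads.

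The 4 genes did not fall to the same share. The counting intervals of the remaining share overlap between Islr and Brinp3 and between no other pair. Serpinf1 kept 732 reads over the 3 si-Rbm22 libraries, in which Myod1 and Cdh15, at 73.4 ± 6.78 and 94.7 ± 7.37 CPM in si-Control (SD, n = 3), had none. Within si-Control, the libraries differed by 1.44% (Serpinf1) to 4.12% (Brinp3) of the mean as a coefficient of variation, above the 0.677% to 1.33% that counting alone gives. In si-Rbm22 the coefficients were 5.37% for Serpinf1, 6.63% for Islr, 13% for Brinp3 and 41.1% for C1qtnf3, each below its counting value of 6.4%, 19.6%, 36.1% and 86.6%. Since a small p-value asks for small spread, this evenness is part of how the genes were chosen.

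Per kilobase of exon, the order of levels in si-Control was Serpinf1 (259 ± 3.72 CPM per kb), Islr (130.3 ± 4.05), C1qtnf3 (63.5 ± 2.49) and Brinp3 (22.8 ± 0.936; SD, n = 3 each). Neighbours in this order differed by far more than their spread. Of 17183 protein-coding genes, 123 stood above Serpinf1 on this scale, 285 above Islr, 676 above C1qtnf3 and 2240 above Brinp3. In si-Rbm22 the order was Serpinf1 (2.82 ± 0.151 CPM per kb), Islr (0.264 ± 0.0175), Brinp3 (0.0298 ± 0.00388) and C1qtnf3 (0.0141 ± 0.00581; SD, n = 3 each). The last pair changed places, but their counting intervals overlap (0.0189 to 0.0447 for Brinp3, 0.00387 to 0.0364 for C1qtnf3). In these libraries 9229 protein-coding genes stood above Serpinf1 and 15597 above C1qtnf3.

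Over the whole table, 38.9% of the 14621 genes tested were lower and 43.1% were higher in si-Rbm22 at an edgeR adjusted p under 0.05, so a fall by itself sets no gene apart here. The rule used this contrast, and nothing is read from the 4 of 4 members that lie among the lower ones. Fitted log2 fold changes (si-Rbm22 over si-Control) were −6.52 for Serpinf1, −8.94 for Islr, −9.55 for Brinp3 and −12.00 for C1qtnf3. By fitted fold, 16 genes fell at least as far as C1qtnf3, counting itself, and 234 at least as far as Serpinf1. Ordered by p among falls, Islr stood at 1, Serpinf1 at 3, C1qtnf3 at 4 and Brinp3 at 5. Gm10260, at 2, a predicted gene without introns, was not taken and is uncertain, since such genes can share reads with a copy elsewhere. The genes just outside were Col5a3, a collagen V chain (209 ± 8.38 against 1.24 ± 0.139 CPM), Gm10020, a processed pseudogene, Lrrc17, a secreted leucine-rich repeat protein (275 ± 12.6 against 0.616 ± 0.169 CPM), and Eno1b, which is uncertain as a close copy of Eno1 (421 ± 15.8 against 12.4 ± 0.431 CPM, SD, n = 3 each).

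**Figure D2:**
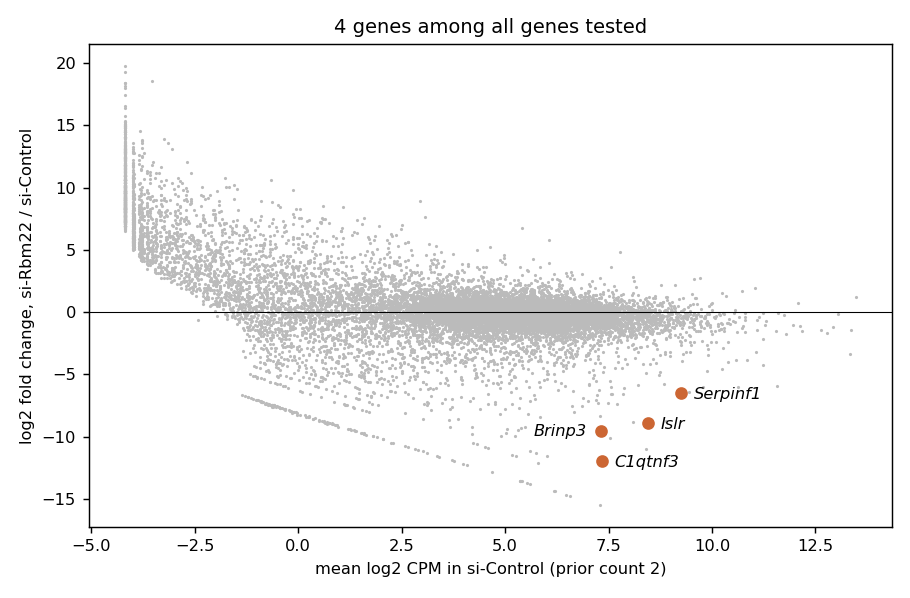
Fitted log2 fold change (si-Rbm22 over si-Control) against the mean log2 CPM in si-Control for the 14621 genes tested, with the 4 genes in orange. They combine a high level in si-Control with folds of −6.52 to −12.00 on the log2 scale, and the slanting line of points at the lower left holds genes without a read in si-Rbm22.

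Families and partners of the 4 genes were taken from lists made by function, with earlier results of these data known. Of 117 tested genes in these lists, 42 fell (35.9%, against 38.9% of all genes) and 63 rose (53.8%, against 43.1%). Of 4 relatives of Brinp3 in the BRINP and astrotactin family, 3 were tested and 3 rose (median log2 fold change 7.26, or 4.23 with genes without reads at their bound). Brinp1, a family member known from brain, rose from 12 reads in si-Control to 86 in si-Rbm22, a ratio of 6.98 (counting interval 3.79 to 14.0, edgeR adjusted p = 0.00171). Brinp2 had no read in si-Control and 18, 17 and 23 in si-Rbm22, at least 18.8-fold higher against a floor of 3 counts over the group (adjusted p = 4.66e-05). Astn2, a related neural membrane protein gene, was at least 575-fold higher. Astn1, too low to be tested, had 14 reads in si-Control and 6 in si-Rbm22, a ratio of 0.417 (0.131 to 1.16). Of the 3 Brinp genes, Brinp3 had the most reads in si-Control and the fewest in si-Rbm22.

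The C1q and TNF related family split. Of 12 tested members besides C1qtnf3, 4 fell and 8 rose (33.3% and 66.7%, against 38.9% and 43.1% of all genes; median 7.16, or 5.45 with genes without reads at their bound). C1qtnf6 and C1qtnf1, both secreted proteins with a C1q domain, fell with C1qtnf3 but kept more. C1qtnf6 had 7703, 7386 and 6939 reads in si-Control and 704, 833 and 954 in si-Rbm22 (log2 fold change −3.18, SE 0.089, adjusted p = 2.45e-12). C1qtnf1 had 3075, 2825 and 2776 reads against 852, 803 and 848 (−1.83, SE 0.065, adjusted p = 5.51e-12). C1qtnf12 fell by 0.92 on the log2 scale (SE 0.13), and Cbln1, a synapse organiser of the family, fell by 5.02 (SE 0.38). In the other direction, C1qtnf2 and C1qtnf4 had no read in si-Control and were at least 92.8-fold and 47.4-fold higher in si-Rbm22. C1qtnf7 was 22.4 times and C1qtnf9 293 times its si-Control level (counting intervals 12 to 47.3 and 52.2 to 11610). C1ql3, a neural member, was at least 196-fold higher. The other 3 that rose were the complement genes C1qa, C1qb and C1qc, with 1, 0 and 0 reads in si-Control. Macrophages make them, and 7 macrophage markers, C1qa among them, summed to 5.49 to 7.36 CPM in si-Control and 117 to 152 CPM in si-Rbm22. The part of macrophage content in these rises was not tested. Per kilobase, C1qtnf3 (63.5 CPM per kb) stood just below C1qtnf6 (76 CPM per kb) in si-Control, whereas in si-Rbm22 C1qtnf6 was at 8.36 CPM per kb and C1qtnf3 at 0.0141.

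Among 16 tested serpins besides Serpinf1, 6 fell and 8 rose (37.5% and 50%, near the 38.9% and 43.1% of all genes), with a median log2 fold change of 0.64 (0.05 over all genes tested). Serpinb1a, an inhibitor of neutrophil proteases inside cells, was at 153 ± 8.25 CPM in si-Control and fell to 10.96 ± 0.799 CPM (−3.80, SE 0.076, adjusted p = 1.45e-14; SD, n = 3 each), and Serpinb6a fell by 1.43 (SE 0.062). Serpinb6b rose by 2.94 (SE 0.079). Serping1, the C1 inhibitor of the complement system, rose from 2.64 ± 0.451 to 214 ± 39.2 CPM (6.34, SE 0.18, adjusted p = 1.91e-09; SD, n = 3 each). Serpinf2, the alpha-2-antiplasmin gene next to Serpinf1, had 2 reads in si-Control and 22 in si-Rbm22 and was too low to be tested. The summed level of the serpin list was similar in the groups, 3252 to 3338 CPM in si-Control and 3346 to 3775 CPM in si-Rbm22.

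For Islr, 2 kinds of relatives were compared. The other genes for proteins with both leucine-rich repeats and immunoglobulin or fibronectin domains, many of them membrane proteins of the nervous system, were 5 lower and 11 higher of 18 tested (27.8% and 61.1%, against 38.9% and 43.1% of all genes; median 2.42). Islr2, which acts in axon growth, had 26, 24 and 14 reads against 11, 10 and 11 (log2 fold change −1.03, SE 0.45, adjusted p = 0.049). Its call is marginal, and its shared exons with Islr make it uncertain. Lrig3 fell by 3.64 (SE 0.087). Flrt2 rose by 2.13 (SE 0.062), Flrt3 had a ratio of 174 (counting interval 114 to 281), and Lrrn4, also among the mesothelial markers, had one of 29170 (8074 to 240800). The 7 mesothelial markers summed to 50.02 to 53.6 CPM in si-Control and 2209 to 2460 CPM in si-Rbm22.

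Of 12 tested small leucine-rich proteoglycans, secreted matrix proteins, 8 fell and 3 rose (66.7% and 25%, against 38.9% and 43.1% of all genes; median −2.64). Podnl1 was at 185 ± 9.5 against 0.165 ± 0.14 CPM, a ratio of 0.000882 (counting interval 0.000522 to 0.00139). Prelp fell from 884 ± 25.2 to 13.6 ± 2.92 CPM (−6.02, SE 0.14), Ogn from 622 ± 44.2 to 41.0 ± 4.15 CPM and Fmod from 404 ± 12.4 to 66.1 ± 6.37 CPM (SD, n = 3 each; the smallest adjusted p of the list was 7.43e-14, for Ogn). The 3 that rose were Podn, a relative of Podnl1, by 6.26 (SE 0.23), Nyx by 5.55 (SE 0.42) and Dcn, decorin, by 0.91 (SE 0.076). Of 11 fibroblast markers, 8 fell and 2 rose (72.7% and 18.2%, against 38.9% and 43.1% of all genes). They had a sum of 21770 to 23680 CPM in si-Control and 5333 to 5475 CPM in si-Rbm22. The collagen genes Col1a1, Col1a2 and Col3a1 made up most of this sum, and of them Col1a2 fell by 3.36 (SE 0.064). Tcf21 had no read in si-Control and Thy1 had 5. The part of fibroblast content in the falls was not tested.

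**Figure D3:**
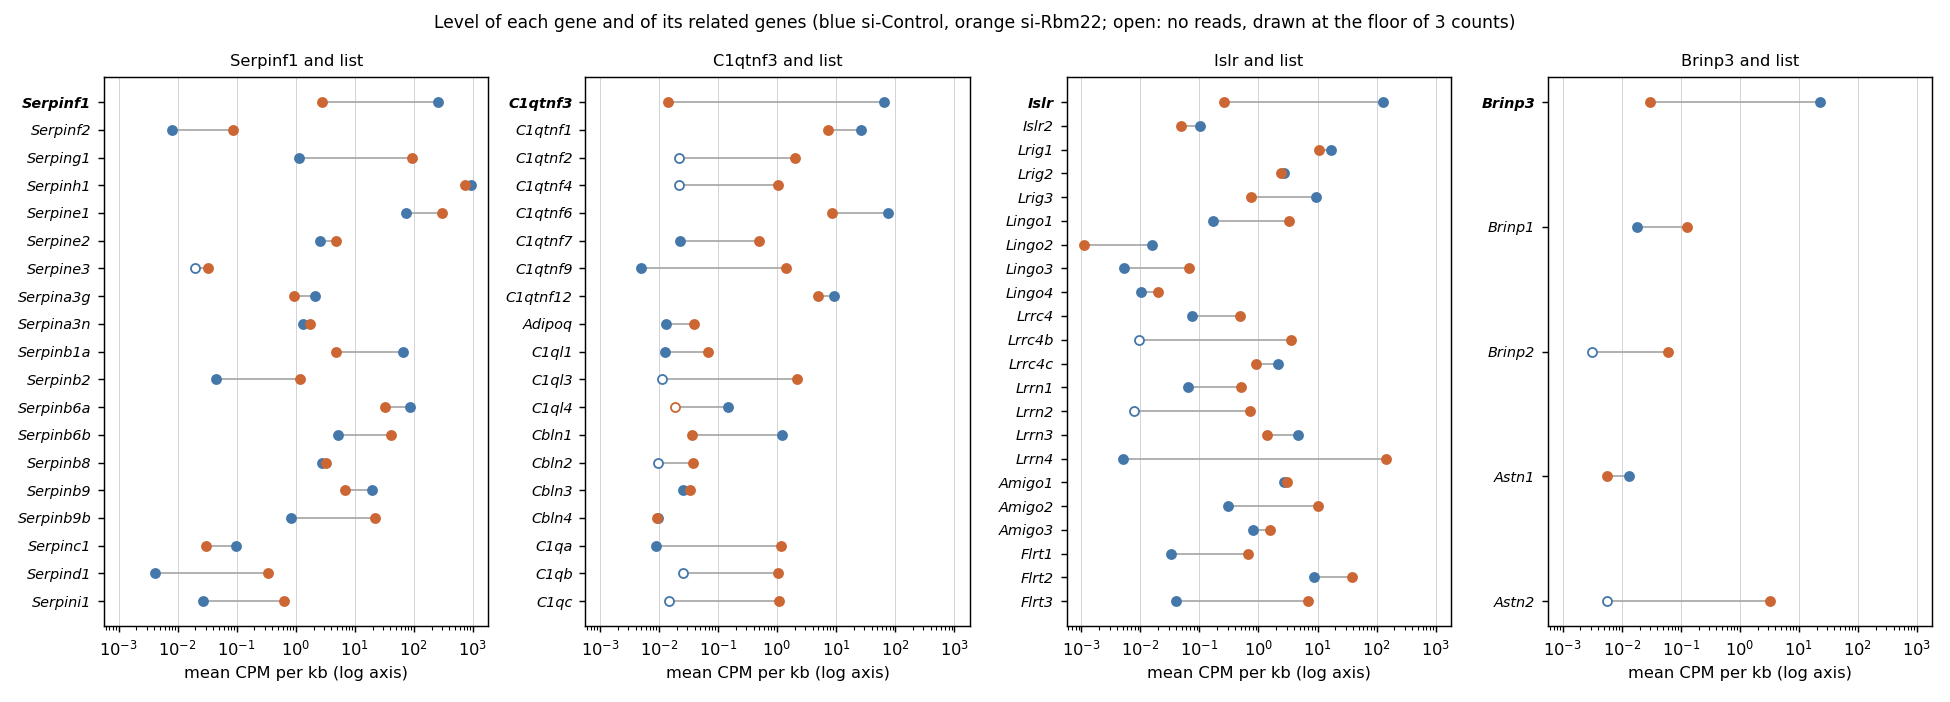
Mean CPM per kilobase of exon (log axis) of each of the 4 genes, in the top row of its panel, and of the related genes in the table, in si-Control (blue) and si-Rbm22 (orange, n = 3 each). Open points had no read in the group and are drawn at its floor of 3 counts. The orange point lies left of the blue one for each of the 4 genes and right of it for Brinp1, Brinp2 and most of the C1q and TNF related genes.

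Of 11 genes in a list of receptors and binding partners, 8 rose and 1 fell (72.7% and 9.09%, against 43.1% and 38.9% of all genes, median 0.79 against 0.05). The list also holds Itgb1 and the adiponectin receptor genes Adipor1 and Adipor2, whose binding to the 4 proteins is not established here. Of these, Adipor2 rose by 0.79 (SE 0.057) and Itgb1 by 0.20 (SE 0.061), and Adipor1 did not pass (edgeR adjusted p = 0.358). For pigment epithelium-derived factor, Pnpla2, a triglyceride lipase also described as its receptor, had 1510, 1452 and 1229 reads in si-Control and 4594, 4149 and 4332 in si-Rbm22 (log2 fold change 1.60, SE 0.071, adjusted p = 5.54e-11). Plxdc2, another described receptor, had 1 read in each si-Control library and 2241, 2075 and 2738 in si-Rbm22, a ratio of 2289 (counting interval 783 to 11100). Its relative Plxdc1 was at 2.78 ± 0.105 against 1.93 ± 0.0995 CPM and did not pass (adjusted p = 0.0544). Rpsa, the laminin receptor and ribosomal protein gene, was the one that fell, by 0.66 (SE 0.054), and is uncertain because it has near-identical copies. Lrp6 rose by 0.89 (SE 0.056). For CTRP3, the lysosomal membrane proteins Lamp1 and Scarb2, described as binding it, rose by 0.64 (SE 0.058) and 1.17 (SE 0.072). Bmp7, to which Islr protein is reported to bind, had 2 reads in si-Control and 302 in si-Rbm22, a ratio of 147 (40.3 to 1219).

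Brinp genes are named for induction by BMP and retinoic acid. Of 31 tested genes of these pathways, 13 fell and 15 rose (41.9% and 48.4%, against 38.9% and 43.1% of all genes; median −0.06). Rarg, a retinoic acid receptor gene, fell from 208 ± 7.06 to 28.2 ± 2.46 CPM (−2.88, SE 0.071), and Crabp1, which binds retinoic acid in the cytoplasm, fell by 5.68 (SE 0.19). The synthesis genes Aldh1a1 and Aldh1a2 rose, the first with a ratio of 2389 (counting interval 1367 to 4624) and the second from no read to 97.3 ± 3.29 CPM, at least 3479-fold. Bmp6 rose by 7.51 (SE 0.17). Neuronal markers as a group stood near the share over all genes, with 5 lower and 7 higher of 14 tested (35.7% and 50%, against 38.9% and 43.1%). Another 8 of the 22 were too low to test, and the median over those tested was 0.43. Syt1, a synaptic vesicle calcium sensor, fell by 5.47 (SE 0.23), Stmn2 fell by 4.17 (SE 0.15) and Eno2, the neuronal enolase, by 2.93 (SE 0.099), while Uchl1 rose by 2.45 (SE 0.077). Schwann cell markers, summed over 6 genes, were at 1.79 to 2.15 CPM in si-Control and 86.7 to 95.6 CPM in si-Rbm22. Dcx, Elavl4 and Th had no read in any library labelled si-Control.

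Each tested chromosomal neighbour of the 4 genes fell less than the member near it, or rose. The members were picked for their falls, so nothing is read from this. Protein-coding genes whose start lies within 500 kb of the start of one of them numbered 47, of which 40 were tested. Of these, 26 fell (65%, against 38.9% of all genes) and 10 rose (25%, against 43.1%). Around Islr 11 of 13 fell and 0 rose (84.6% and 0%, median −0.76). Distances there run from the start of the long Islr transcript, not from the start used for the sequence above. The fall with the smallest p there was that of Insyn1, an inhibitory synapse gene 284.3 kb away, from 95.4 ± 1.4 to 7.69 ± 0.878 CPM (−3.63, SE 0.084, adjusted p = 6.05e-14). Stra6, the vitamin A transporter gene 140.5 kb to the other side, went from 3.11 ± 0.224 to 0.127 ± 0.0403 CPM (−4.58, SE 0.39). Islr2, whose start lies 0.0 kb away and which shares exons with Islr, is counted among the falls. By start, the next gene beyond it was Pml, 45.5 kb away, which fell by 0.26 (SE 0.065). Ccdc33, the next by start on the other side, had 8 reads in all.

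Around Serpinf1, 10 of 20 tested neighbours fell and 9 rose (50% and 45%, against 38.9% and 43.1% of all genes, median −0.04). Falls and rises were thus near equal in number around a gene that was down to 1.09%. Smyd4, 74.3 kb away, fell by 1.54 (SE 0.093). Hic1, a transcriptional repressor gene, rose from 0.391 ± 0.0392 to 15.3 ± 1.57 CPM (5.28, SE 0.19, adjusted p = 7.83e-12). Around C1qtnf3, 5 of 7 fell and 1 rose (71.4% and 14.3%, against 38.9% and 43.1% of all genes, median −0.95). Amacr, a racemase gene of branched fatty acid breakdown whose start is 29.4 kb away, fell from 44.9 ± 1.73 to 12.5 ± 0.474 CPM (−1.85, SE 0.078), and Rai14, on the other side, by 0.98 (SE 0.07). No protein-coding gene starts within 500 kb of Brinp3.

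**Figure D4:**
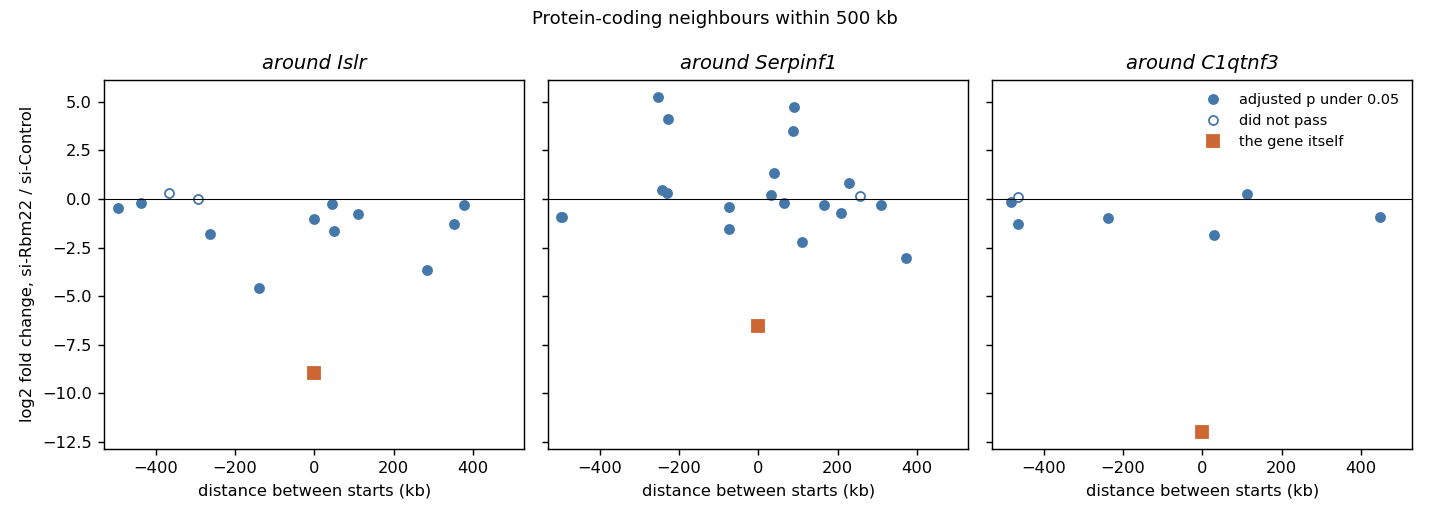
Fitted log2 fold change (si-Rbm22 over si-Control) of tested protein-coding neighbours against the distance between starts in kb, with positive distances toward higher coordinates, around Islr, Serpinf1 and C1qtnf3 (square). Filled points passed at an adjusted p under 0.05. Each square lies below all of its neighbours, at −8.94, −6.52 and −12.00, which is a description, since the squares were picked for their falls. The points around Serpinf1 lie on both sides of 0.

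The genes whose profiles over the 6 libraries were most alike were found by Euclidean distance between centred log2 CPM (prior count of 2), a measure that treats genes with few or no reads in si-Rbm22 as near each other. Nearest to Islr were Lrrc17 (distance 0.466), Hoxa7, Brinp3 (0.531), Hoxc4 and Slc6a2, the noradrenaline transporter gene. Nearest to Brinp3 were Hoxa9 (0.41), Hoxa11, Hoxc11, Islr and Slc6a2. Nearest to C1qtnf3 were Cdh15 (0.406), Ifi202b, Myod1, Cacng1 and Hoxc10, of which Hoxc10 had 1 read in si-Rbm22 and the others none. Serpinf1 lay nearest to Fam20a, a secretory pathway pseudokinase gene (distance 0.171, 193 against 2.07 CPM), and Fndc1 (0.28, 693 against 8.09 CPM). Next came Gchfr (40.9 against 0.336 CPM), Myh13 and Magea8. Myh13 and Magea8, at 5.90 and 6.19 CPM in si-Control, had no read in si-Rbm22, so the prior count shapes their distance to Serpinf1. Of the 6 pairs among the 4 genes, Islr and Brinp3 were the closest and Serpinf1 and C1qtnf3 the farthest (5.27).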

How the data were processed

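The authors deposited unnormalized read counts, whole numbers for each Ensembl gene identifier in 6 libraries; per the submitters' processing notes, fastp, HISAT2, HTSeq, DESeq2 and GRCm38 were used, with annotation release, strand setting and versions not given in the sources used here. Of 18951 identifiers, 18868 matched GENCODE release M21 (GRCm38), which gave symbols, positions and exon lengths. Sample titles gave each group and replicate number. All genes were fitted with edgeR 4.0.16 in R 4.3.3 (TMM, filterByExpr, robust quasi-likelihood test, group as the only term). Benjamini-Hochberg adjustment was over 14621 genes, with a threshold of 0.05. The procedure was tested on simulated counts in which 200 genes were changed. Far more genes differ here, so that run does not show how the fit behaves on these data. The SE is the absolute log2 fold change over the square root of F and can be smaller than counting error where reads are few, so ratios with exact 95% intervals are given there. These and the floor of 3 counts per group cover counting error only. Alternatives were RLE scaling, 2 other filters, DESeq2 1.42.0, limma-voom (limma 3.58.1), a replicate block and each library left out. The members, lists and tests were chosen with earlier results of these data known. Named were the members, their paralogs, per list the 4 smallest p, the nearest and the smallest-p neighbours, the 5 most alike profiles with a named symbol (not Gm or Rik) and the 4 falls next by p. Others (markers, Stra6, Astn1, Col1a2, the proteoglycans that rose, complement genes, CTRP3 binders, Plxdc1, Rpsa, Adipor1, Adipor2, Itgb1, Bmp7, Crabp1) were named after their values were seen. Replicates of a group differed beyond sampling noise (chi-square per degree of freedom of 4.52 or more).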

Additional observations from a re-analysis of the deposited data

How the results depend on the processing

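Over all 12 alternatives the 4 genes kept their direction, and Islr, Serpinf1 and Brinp3 moved by less than the spread between replicates. C1qtnf3, with 4 reads in si-Rbm22, went from −12.00 to −11.71 on the log2 scale with limma-voom, and to between −12.36 and −11.85 when a library was left out (−12.36 without si-Rbm22 replicate 3, which held 2 of the 4 reads). Related genes called higher numbered 36 in place of 63 when only genes with at least 10 CPM in 3 libraries were tested, a setting in which 72 of them were tested. All other counts stayed within 1.5 times of those reported: over all genes 4372 to 6067 lower and 4400 to 6990 higher. Same-numbered libraries did not deviate together (correlations across genes of −0.0164, 0.00689 and 0.00841), and not every library correlated best with its own number. With the replicate number as a block, 5681 genes were lower and 6264 higher. Leaving out the libraries whose content is in doubt was not possible, as these are all 3 labelled si-Control. Depth limits the values of C1qtnf3 and Brinp3 in si-Rbm22, which rest on 4 and 23 reads.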
